A study of Mus musculus with 18 samples.

Results

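The extracellular matrix and fibrosis genes described here are 45 genes named by their symbols, covering interstitial and basement membrane collagens, laminins, proteoglycans, TGF-beta genes, matrix proteases and myofibroblast genes. All 45 were among the 19545 genes of the deposited expression table, and 43 of them were among the 12385 genes that could be tested. The list was drawn up by gene names, with earlier results of these data known, and no threshold on measured values separates it from other genes. Col5a2, a fibrillar collagen chain, reached 1 FPKM in 2 libraries and Tgfb2, a TGF-beta ligand, in 1, so these were not tested.

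Kidney RNA was sequenced from ICR mice, an outbred strain, aged 10 weeks, in 18 libraries that formed 6 groups of 3. HS_AOS_FMT kidneys came from mice on a high fat diet with STZ and a faecal microbiota transfer labelled by AOS at 10 mg/kg, and HS_control_FMT kidneys from mice with the same diet and STZ and a transfer labelled by control. HS_AOS kidneys came from mice given the diet, STZ and AOS at 10 mg/kg, and HS kidneys from mice with the diet and STZ alone. AOS kidneys came from mice given AOS at 10 mg/kg without the diet or STZ, and control kidneys from mice with none of these in their labels. STZ is streptozotocin, which kills insulin-producing cells and is given to make rodents diabetic, and the labels do not spell out AOS or name the donors of the transfers. No label ties the 3 samples of a group to separate animals, so p-values reflect sample-to-sample spread, which may be technical. Levels are in FPKM, a fragment abundance scaled to transcript length and library size, and changes are differences of log2(FPKM + 1), which understate the change of genes at low levels.

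Collagens are triple helices of 3 chains: fibrillar collagens such as types I and III form the cables of the interstitium, while type IV forms the sheet of the basement membrane together with laminins, nidogens and proteoglycans. In the kidney the alpha1 and alpha2 chains of type IV collagen lie in the basement membranes of tubules, vessels and mesangium, and the alpha3, alpha4 and alpha5 chains build the glomerular filter. TGF-beta is the best known driver of matrix deposition, and in scarring kidneys pericytes and fibroblasts turn into myofibroblasts that carry smooth muscle actin, the product of Acta2.

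Some libraries stood apart for most of these genes. HS_control_FMT 3 held the lowest of the 18 values for 26 of the 43 tested members, against 22.5% of all tested genes, and control 3 held the highest for 27 of 43, against 33.7% of all tested genes. The median deviation of the 43 members from their means was -0.58 on the log2 scale in HS_control_FMT 3 and 0.53 in control 3, against -0.14 and 0.19 over all tested genes. In AOS 2 all 43 tested members lay below their own means, with a median deviation of -0.32. Some lists of cell markers also had many of their extreme values in these libraries. HS_control_FMT 3 was the lowest library for 6 of 10 endothelial, 5 of 9 leukocyte, 4 of 12 smooth muscle and pericyte, 3 of 11 fibroblast and 2 of 9 podocyte markers, beside the 22.5% of all tested genes. Control 3 was the highest for 8 of 9 podocyte, 6 of 10 endothelial, 5 of 12 smooth muscle and pericyte, 4 of 9 leukocyte and 3 of 11 fibroblast markers, beside 33.7%. The smooth muscle and fibroblast counts lay nearer these shares than the endothelial counts did. Control 3 also stood apart in tubule genes. The 8 proximal tubule genes listed summed to 18540 FPKM there, against 154545 and 149530 FPKM in the other control libraries. That sum rested mostly on genes other than Slc34a1 and Lrp2, which differed less. Slc34a1 had 1762 FPKM in control 3, against 2530 and 2830, and Lrp2 had 99.1 FPKM, against 142 and 161. Control 3 was the lowest library for 4 of the 8 genes. Havcr1, a marker of injured tubules, had 19.4 FPKM in control 3, against 2.03 and 1.85 FPKM. The 12 adrenal genes listed summed to 452 FPKM in HS_AOS_FMT 2, 675 FPKM in HS 3 and 970 FPKM in control 3, to 78.2 FPKM in HS_AOS_FMT 3 and to at most 10.5 FPKM in the other 14 libraries. The 6 germ cell genes listed summed to 27.5, 27.6 and 39.2 FPKM in the control libraries and to at most 0.47 FPKM in any other library. In HS against control and in AOS against control, 4 germ cell genes passed as lower, out of 8 calls over all tested genes in each. The part of these cells in the results below was not tested, and in whole kidney RNA fewer cells of a type and less RNA per cell cannot be told apart.

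**Figure D1:**
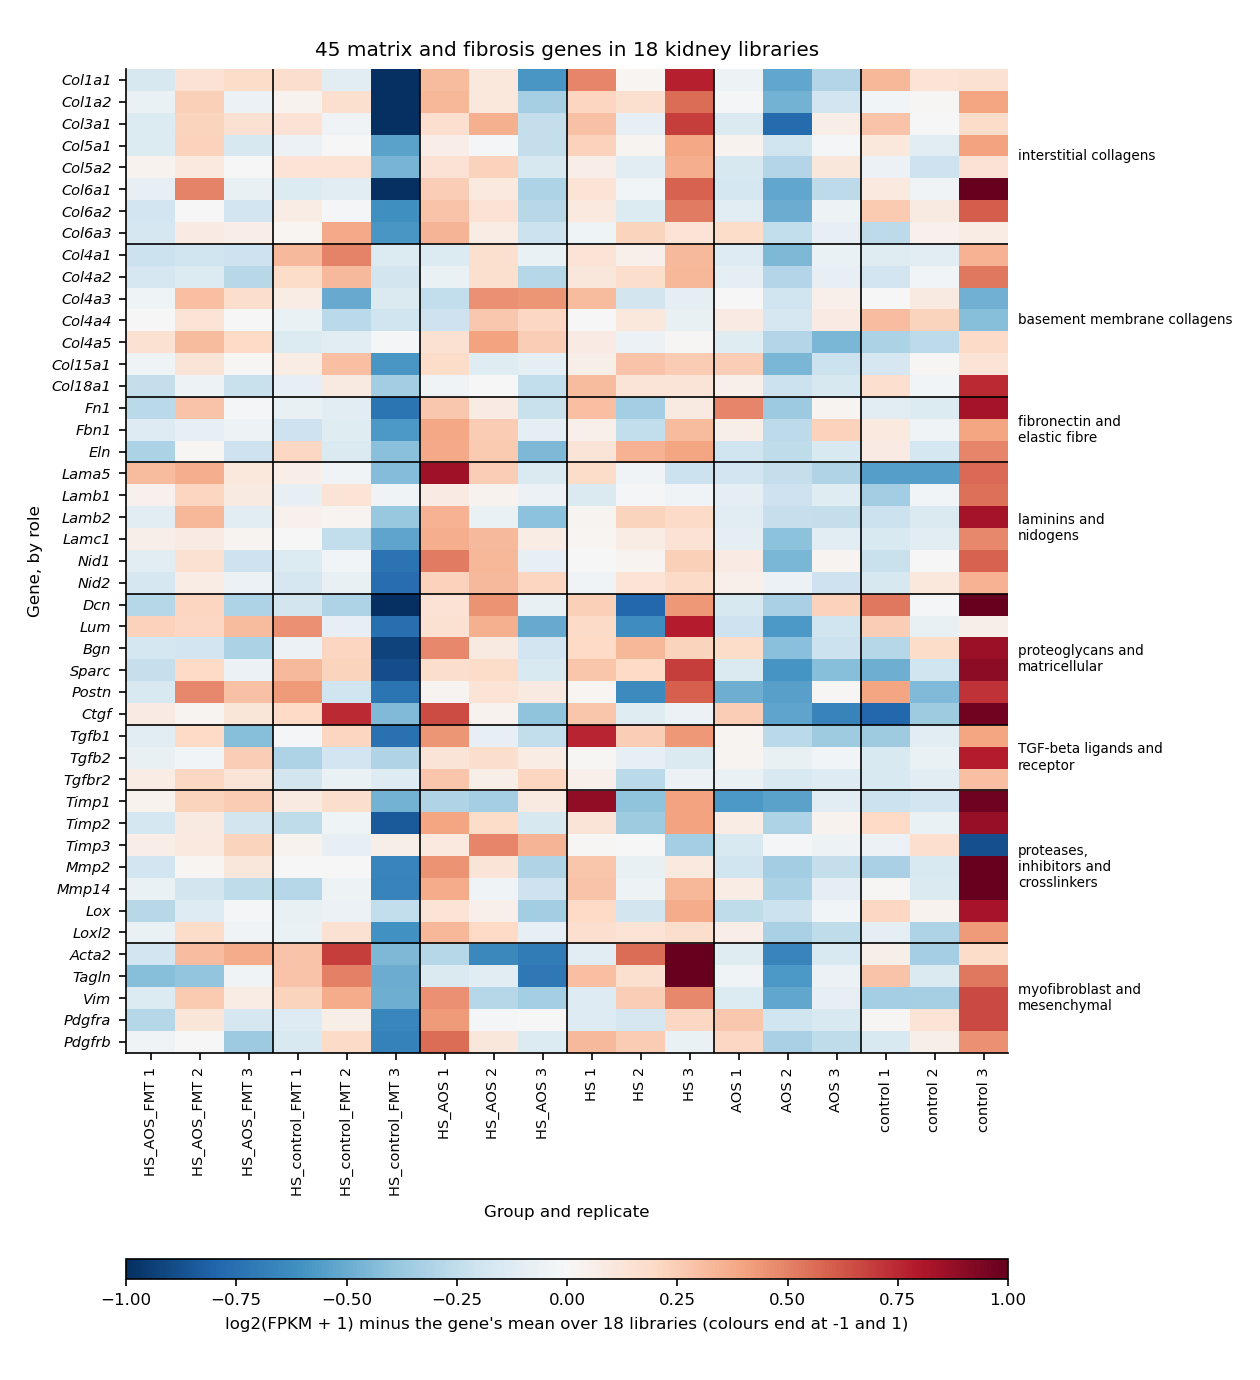
Each row is 1 of the 45 genes, grouped by role, and each column 1 of the 18 libraries. The colour is log2(FPKM + 1) minus the gene's mean over the 18 libraries. The HS_control_FMT 3 column is blue for nearly every gene and the control 3 column is red for most, with Timp3, Col4a3 and Col4a4 as blue exceptions.

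**Figure D2:**
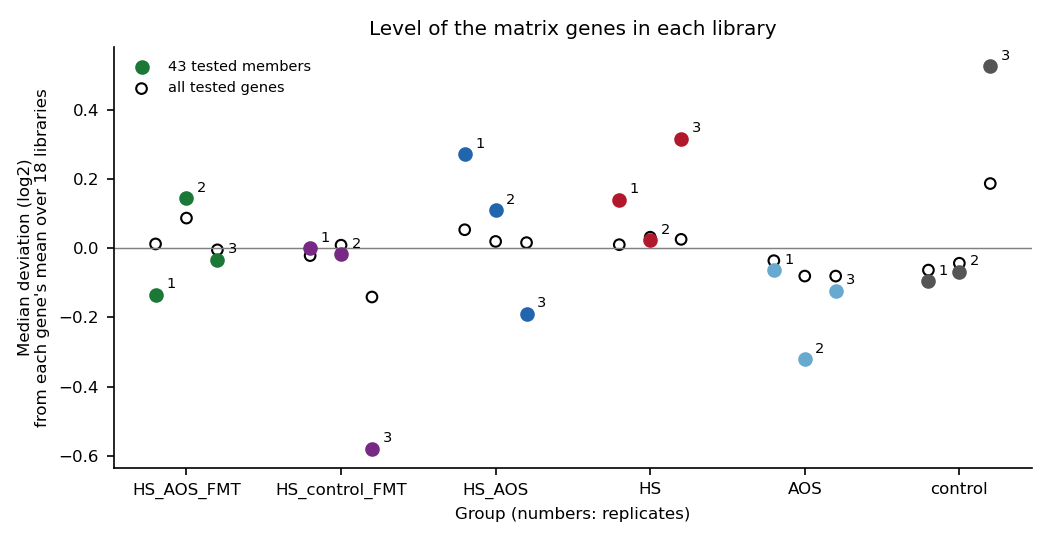
Filled points give the median deviation (log2) of the 43 tested members in each library and open circles that of all tested genes, by group, with the replicate number beside each filled point. HS_control_FMT 3 lies lowest at -0.58 and control 3 highest at 0.53.

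No member passed at an adjusted p under 0.05 in any of the 6 comparisons between groups, each fitted over all tested genes in limma with Benjamini-Hochberg adjustment. In HS_AOS_FMT against HS_control_FMT this was 0 of 43 members beside 3.99% of all tested genes, with 3 members at an unadjusted p under 0.05 beside 19.8% of all tested genes. In HS_AOS_FMT against HS it was 0 of 43 beside 0.977%, with 6 members at an unadjusted p under 0.05 beside 18.1%. In HS_control_FMT against HS it was 0 of 43 beside 0.751%, with 7 at an unadjusted p under 0.05 beside 15.2%. In HS_AOS against HS it was 0 of 43 beside 2.3%, with 4 at an unadjusted p under 0.05 beside 20.3%. In HS against control 0 of 43 passed beside 0.0646% of all tested genes, and no member had an unadjusted p under 0.05 beside 6.63%. In AOS against control 0 of 43 passed beside 0.0646%, with 4 at an unadjusted p under 0.05 beside 7.28%. The effect of AOS in HS minus its effect in control kidneys passed for 0 of 43 members beside 0.0727%, with 2 at an unadjusted p under 0.05 beside 15%. Each of these counts lay near or below the share seen among all tested genes.

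The median member lay below its HS level in all 3 groups that added a treatment to HS, although in HS_AOS this turned when HS_AOS 3 was left out or genes under 5 FPKM were. The median log2 change over the 43 members was -0.13 in HS_AOS_FMT against HS, -0.33 in HS_control_FMT against HS and -0.11 in HS_AOS against HS, where the medians over all tested genes were 0.00, -0.08 and 0.01. These comparisons share the HS libraries. Between the transfers the median change was 0.17 in HS_AOS_FMT against HS_control_FMT, beside 0.07 over all tested genes, with 35 members at a positive and 8 at a negative change. HS against control gave a median of 0.05 beside 0.00, with 25 members above and 18 below 0. AOS against control gave -0.28 beside -0.09, with 3 members above and 40 below 0. Several of these medians moved or turned with 1 library. Without HS_control_FMT 3 the median was -0.00105 in HS_AOS_FMT against HS_control_FMT, with 21 members at a positive and 22 at a negative change, and -0.14 in HS_control_FMT against HS. In HS_AOS against HS it was 0.06 without HS_AOS 3, 0.01 over the members with at least 5 FPKM in 3 samples and -0.01 without HS 3, and in HS_AOS_FMT against HS it was -0.07 without HS 3. In HS against control it was -0.09 without control 1, -0.03 without control 2 and 0.21 without control 3, so its sign depended on single control libraries. In AOS against control it was -0.08 without control 3.

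**Figure D3:**
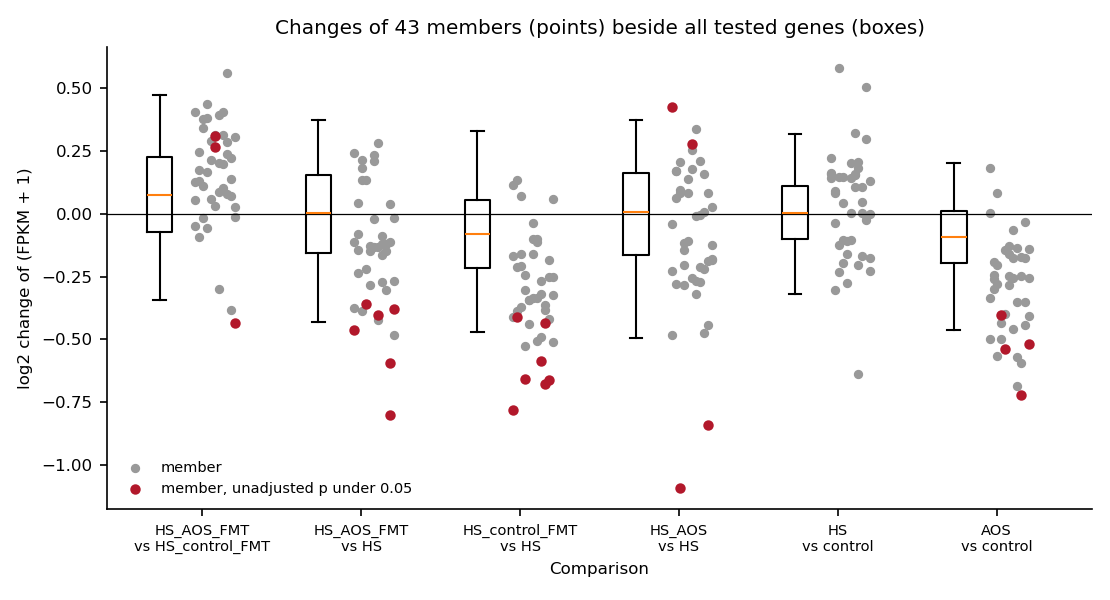
Points are the log2 changes of the 43 tested members in the 6 comparisons, red where the unadjusted limma p is under 0.05, and boxes show all tested genes (median, quartiles, and whiskers from the 5th to the 95th percentile). Most points lie below 0 in HS_control_FMT vs HS and AOS vs control and above 0 in HS_AOS_FMT vs HS_control_FMT; the lowest point is Acta2 in HS_AOS vs HS at -1.09.

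Counting members whose 3 values in each group did not overlap gave a similar picture. There were 8 such members in HS_AOS_FMT against HS_control_FMT, of which 7 were higher, beside 29.3% of all tested genes. In HS_AOS_FMT against HS there were 13, of which 9 were lower, beside 29.5%, and in HS_control_FMT against HS 7, all lower, beside 25.3%. In HS_AOS against HS there were 8, of which 4 were lower, beside 24.7%. In HS against control there were 0 beside 8.53%, and in AOS against control 5, all lower, beside 13.1%. Taking each member's highest group mean, 15 of the 45 members were highest in HS, 14 in control and 12 in HS_AOS, while 20 had their lowest mean in AOS and 17 in HS_control_FMT.

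The 8 interstitial collagen chains were low in these kidneys, with means over the 18 libraries between 0.793 FPKM for Col5a2 and 8.78 FPKM for Col1a2. Col1a1, the alpha1 chain of type I collagen, had 3.11, 4.08 and 4.21 FPKM in HS_AOS_FMT, 4.19, 3.26 and 1.12 in HS_control_FMT, and 4.74, 3.95 and 2.07 in HS_AOS. It had 5.45, 3.67 and 6.9 FPKM in HS, 3.44, 2.2 and 2.75 in AOS, and 4.78, 4.06 and 4.12 in control. The groups overlapped, except that all 3 AOS values lay below all 3 control and all 3 HS values, and the lowest value of all was that of HS_control_FMT 3. Its log2 change in HS_control_FMT against HS was -0.78 (SE 0.296, adjusted p = 0.234), and -0.40 (adjusted p = 0.61) without HS_control_FMT 3. Col1a2, the partner chain of type I collagen, had a log2 change of -0.59 in the same comparison, Col3a1, the chain of type III collagen, -0.66, Col5a1, which starts collagen fibrils, -0.41, and Col6a1, of the beaded microfibrils, -0.68, each at an unadjusted p under 0.05 and with adjusted p-values from 0.291 to 0.322. Without HS_control_FMT 3 these changes were -0.21 for Col1a2, -0.25 for Col3a1, -0.24 for Col5a1 and -0.36 for Col6a1. All 7 tested interstitial chains lay below 0 in HS_control_FMT against HS, and all 7 also in HS_AOS against HS and in HS_AOS_FMT against HS. Leaving out 1 library turned the sign of 1 chain in HS_control_FMT against HS (without HS_control_FMT 3), of 1 in HS_AOS_FMT against HS (without HS 3) and, in HS_AOS against HS, of Col6a2 and Col6a3 without HS_AOS 3, of Col6a2 without HS 3 and of Col6a3 without HS 2. In AOS against control Col6a1 had a log2 change of -0.72 and Col6a2, its partner, -0.54, both at an adjusted p of 0.674. Here control 3, at 10.5 FPKM, stood apart from 4.55 and 4.06 FPKM in the other control libraries for Col6a1, and without it the change of Col6a1 was -0.35. The ratio of Col1a1 to Col1a2 was 0.434 ± 0.0732 in HS_AOS_FMT, 0.374 ± 0.0932 in HS_control_FMT, 0.391 ± 0.0651 in HS_AOS, 0.485 ± 0.0899 in HS, 0.386 ± 0.0204 in AOS and 0.467 ± 0.107 in control (SD, n = 3 each).

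Basement membrane collagens were at higher levels, with a median over their 7 means of 29.3 FPKM, against 3.48 FPKM for the interstitial chains. Col4a1 and Col4a2, the chains that assemble together in most basement membranes, are neighbours on chromosome 8 and are read in opposite directions from a shared start region. Their promoter windows in RefSeq (build GRCm38.p6, 250 bases before to 50 after each start) are shown because the levels of this pair are compared below. They lie at chr8:11312777-11313076 on the minus strand for Col4a1 and at chr8:11312555-11312854 on the plus strand for Col4a2, and share 78 bases. Capitals mark matches to GGGCGG, the core letters of a GC box, and to CCAAT, each searched on both strands.
Col4a1: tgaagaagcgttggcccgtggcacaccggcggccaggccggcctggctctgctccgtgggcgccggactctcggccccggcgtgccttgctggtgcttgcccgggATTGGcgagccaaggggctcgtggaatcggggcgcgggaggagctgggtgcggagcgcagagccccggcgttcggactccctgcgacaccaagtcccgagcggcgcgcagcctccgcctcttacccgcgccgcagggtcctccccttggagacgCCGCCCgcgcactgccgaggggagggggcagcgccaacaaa
Col4a2: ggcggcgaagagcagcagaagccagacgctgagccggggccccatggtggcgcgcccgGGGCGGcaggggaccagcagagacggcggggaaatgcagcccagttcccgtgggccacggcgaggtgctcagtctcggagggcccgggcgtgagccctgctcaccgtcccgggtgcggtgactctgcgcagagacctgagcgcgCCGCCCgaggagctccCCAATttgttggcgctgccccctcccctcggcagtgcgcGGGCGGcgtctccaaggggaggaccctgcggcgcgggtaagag
GGGCGG occurred 1 time in the Col4a1 window and 3 times in the Col4a2 window, and 1 of these is the same site, at chr8:11312812-11312817, read from either strand. Of all 32851 promoter windows of this length 35.7% held GGGCGG and 37.4% CCAAT. The GC content was 74% for the Col4a1 window and 73.7% for the Col4a2 window, against a median of 52.7% for all windows. By the starts used for these windows, the first 22 bases of the transcripts overlap on opposite strands. The annotated Col4a1 gene reaches to chr8:11312889, beyond its window's start at 11312826, so the 22 bases hold for these starts only. Whether reads were counted by strand is not given in the sources used here.

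Col4a1 had 36.76, 37.2 and 37.07 FPKM in HS_AOS_FMT, 54.08, 60.83 and 38.97 in HS_control_FMT, and 38.9, 48.03 and 40.95 in HS_AOS. It had 47.17, 44.52 and 53.96 FPKM in HS, 39.07, 31.08 and 41.04 in AOS, and 39.48, 39.82 and 54.73 in control. The HS_AOS_FMT libraries lay close together, at 37.0 ± 0.226 FPKM (SD, n = 3), and below every HS_control_FMT and every HS library. The log2 change in HS_AOS_FMT against HS_control_FMT was -0.44 (SE 0.159, adjusted p = 0.136), the member with the smallest p in that comparison, and -0.62 (adjusted p = 0.0527) without HS_control_FMT 3. With trends in GC content and length removed it was -0.53 at an adjusted p of 0.0409. In HS_AOS_FMT against HS it was -0.38 (adjusted p = 0.226). Col4a2 had 25.62, 26.21 and 23.65 FPKM in HS_AOS_FMT, 32.93, 36.44 and 25.31 in HS_control_FMT, and 31.3, 32.85 and 36.63 in HS. Its HS_AOS_FMT values lay below all 3 HS values but overlapped those of HS_control_FMT, and its log2 change in HS_AOS_FMT against HS was -0.40 (adjusted p = 0.221). The ratio of Col4a1 to Col4a2 was 1.49 ± 0.118 over the 18 libraries, from 1.3 to 1.74, while Col4a2 itself ranged from 23.4 to 42.1 FPKM. The endothelial markers lay in the same direction in HS_AOS_FMT against HS: 10 of 10 tested markers had a negative log2 change, 0 of them passed, and their summed level was 134 to 169 FPKM in HS_AOS_FMT and 171 to 230 FPKM in HS. In HS_control_FMT against HS 10 of 10 of these markers were also negative, where Col4a1 had a log2 change of 0.06 and Col4a2 of -0.10. Between the transfers 8 markers were positive and 2 negative, where Col4a1 had -0.44 and Col4a2 -0.30. The part of endothelial RNA in the Col4a1 and Col4a2 values was not tested.

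Col4a5, a chain of the glomerular basement membrane whose human gene is mutated in Alport syndrome, was the 1 member of 43 that passed the test for any difference among the 6 groups (limma F test, adjusted p = 0.0475), which 8.21% of all tested genes passed. At an unadjusted p under 0.05 this test held 4 members, beside 28.8% of all tested genes. It had 6.56, 7.47 and 6.78 FPKM in HS_AOS_FMT, 5.18, 5.3 and 5.72 in HS_control_FMT, and 6.53, 7.98 and 7.07 in HS_AOS. It had 6.19, 5.53 and 5.86 FPKM in HS, 5.24, 4.55 and 3.96 in AOS, and 4.44, 4.67 and 6.77 in control. The HS_AOS_FMT values lay above all HS_control_FMT and all HS values, and the HS_AOS values lay above all HS values. The group means ran from 4.58 ± 0.641 FPKM in AOS to 7.19 ± 0.733 in HS_AOS (SD, n = 3 each). The call rested on the full set of libraries: it was lost in 16 of 18 fits that each left out 1 library, with adjusted p-values of up to 0.108. The log2 change was 0.31 (SE 0.126, adjusted p = 0.182) in HS_AOS_FMT against HS_control_FMT. The effect of AOS in HS minus that in control kidneys was 0.41 (SE 0.178, adjusted p = 0.295). Col4a3, a partner chain, averaged 40.7 ± 4.92 FPKM in HS_AOS_FMT, 32.2 ± 6.52 in HS_control_FMT and 37.3 ± 7.28 in HS, and the ratio of Col4a3 to Col4a4, a pair that also starts head to head, stayed between 0.824 and 1.29 over the 18 libraries. Col4a4 had its lowest value in control 3, at 26.2 FPKM, where most other members had their highest. Podocyte markers, which stand for 1 cell type that makes these chains, summed to 90.1 to 101 FPKM in HS_AOS_FMT, 58 to 85.8 in HS_control_FMT, 91.5 to 107 in HS_AOS, 86.4 to 94.4 in HS, 59 to 70.5 in AOS and 58.7 to 133 in control. They were highest in control 3, at 133 FPKM, the library with the lowest Col4a4 value. Their part in the Col4a5 result was not tested.

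Col18a1, the source of endostatin, had 21.68, 24.83 and 21.96 FPKM in HS_AOS_FMT, 24.31, 27.4 and 20.05 in HS_control_FMT, and 25.04, 25.75 and 21.49 in HS_AOS. It had 32.26, 28.2 and 28.2 FPKM in HS, 26.68, 21.98 and 22.96 in AOS, and 29.01, 25.17 and 43.83 in control. Every library of the 3 treated HS groups lay below every HS library for this gene. The log2 change was -0.36 (adjusted p = 0.257) in HS_AOS_FMT against HS and -0.40 (adjusted p = 0.674) in AOS against control, the second of which was -0.18 without control 3. Col15a1, a basement membrane collagen of vessels, was the lowest of its class at 3.53 FPKM on average.

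Among the 6 laminins and nidogens, Lamb1, a beta chain of laminin, was the most abundant at 20.1 FPKM on average. Its HS_AOS_FMT values of 20.57, 23.37 and 21.35 FPKM lay above the HS values of 17.99, 19.8 and 19.46, with a log2 change of 0.18 that did not reach an unadjusted p of 0.05. Nid2, which links laminin to type IV collagen, had the smallest p in HS_control_FMT against HS. It had 3.03, 3.76 and 3.35 FPKM in HS_AOS_FMT, 3.02, 3.3 and 1.67 in HS_control_FMT, 4.29, 4.65 and 4.25 in HS_AOS and 3.41, 3.98 and 4.17 in HS. The HS_AOS values lay above and the HS_control_FMT values below all HS values. The log2 change in HS_control_FMT against HS was -0.43 (SE 0.164, adjusted p = 0.234), and -0.22 (adjusted p = 0.61) without HS_control_FMT 3. Lama5, a laminin chain of mature kidney basement membranes, had 10.77, 11.16 and 9.16 FPKM in HS_AOS_FMT, 8.94, 8.25 and 6.01 in HS_control_FMT, and 16, 10.21 and 7.58 in HS_AOS. It had 9.78, 8.23 and 7.17 FPKM in HS, 7.29, 7.02 and 6.69 in AOS, and 5.47, 5.46 and 13.02 in control. The control libraries thus spanned a wider range than those of any treated group except HS_AOS. All 6 genes of the class had positive changes in HS_AOS_FMT against HS_control_FMT, with a median of 0.26, and all 6 had negative changes in AOS against control, with a median of -0.22, and none reached an unadjusted p of 0.05 there. Without HS_control_FMT 3 the first was 5 of 6 with a median of 0.08, and without control 3 the second was 4 of 6 with a median of -0.01.

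Fibronectin and the elastic fibre genes were low. Fn1, fibronectin, averaged 5.54 FPKM, with its highest value of 10.28 FPKM in control 3 and its lowest of 2.82 FPKM in HS_control_FMT 3. Eln, elastin, had 1.39, 2 and 1.58 FPKM in HS_AOS_FMT, 2.43, 1.69 and 1.23 in HS_control_FMT, 2.86, 2.57 and 1.18 in HS_AOS and 2.26, 2.79 and 2.92 in HS. Its HS_AOS_FMT values lay below all HS values, and the log2 change was -0.46 (SE 0.215, adjusted p = 0.271).

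The proteoglycans and matricellular genes held the most abundant matrix transcripts after Timp3. Bgn, biglycan, averaged 71.4 FPKM over the 18 libraries, Sparc, a collagen-binding protein, 55 FPKM and Dcn, decorin, 46.3 FPKM. Bgn had 60.72, 60.33 and 54.95 FPKM in HS_AOS_FMT, 66, 80.08 and 35.83 in HS_control_FMT, and 96.36, 73.43 and 60.27 in HS_AOS. It had 79.29, 87.08 and 80.57 FPKM in HS, 78.32, 51.16 and 59.24 in AOS, and 56.29, 78.52 and 126 in control. The HS_AOS_FMT values lay close together and below all HS values, while the control libraries spread most. The log2 change in HS_AOS_FMT against HS was -0.48 at an adjusted p of 0.408, and Bgn passed (adjusted p = 0.0496) where only these 2 groups entered the fit. Dcn had the largest negative change in HS against control, at -0.64 (SE 0.354, adjusted p = 0.815), with 51.17, 24.65 and 58.92 FPKM in HS and 62.79, 42.65 and 107.7 in control. Ctgf, connective tissue growth factor, a target of TGF-beta and YAP signalling, had 20.98, 20.15 and 21.61 FPKM in HS_AOS_FMT, 22.88, 33.86 and 14.29 in HS_control_FMT, 31.64, 20.23 and 14.74 in HS_AOS, 24.14, 18.11 and 18.99 in HS, 23.67, 13.38 and 12.11 in AOS, and 11.05, 15.28 and 39.62 in control. The HS_AOS_FMT libraries of Ctgf lay close together, the other groups spread more widely, and control 3 was the highest library.

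Of the TGF-beta genes, Tgfb1, the main profibrotic ligand, had the smallest p of any member in HS against control. It had 7.08, 9.03 and 5.51 FPKM in HS_AOS_FMT, 7.62, 9.16 and 4.22 in HS_control_FMT, and 10.88, 7.24 and 6.37 in HS_AOS. It had 13.83, 9.38 and 10.78 FPKM in HS, 7.93, 6.26 and 5.82 in AOS, and 5.83, 7.11 and 10.52 in control. HS held the highest group mean, and all libraries of both transfer groups lay below all HS libraries, whereas HS overlapped HS_AOS and control. The log2 change was 0.50 (SE 0.262, adjusted p = 0.802) in HS against control, and 0.71 (adjusted p = 0.294) without control 3. It was -0.59 (adjusted p = 0.246) in HS_AOS_FMT against HS and -0.66 (adjusted p = 0.254) in HS_control_FMT against HS, the second of which was -0.38 without HS_control_FMT 3. Leukocyte markers, from cells that also make Tgfb1, had a negative change for 7 of 8 tested markers in HS_AOS_FMT against HS, 6 of 8 in HS_control_FMT against HS and 7 of 8 in HS against control, with none passing; their part was not tested. Tgfbr2, the receptor that binds the ligand, had 23.18, 25.49 and 24.1 FPKM in HS_AOS_FMT, 19.16, 20.89 and 19.93 in HS_control_FMT, and 26.82, 22.83 and 25.61 in HS_AOS. It had 22.79, 18.03 and 20.97 FPKM in HS, 20.93, 19.6 and 19.92 in AOS and 19.66, 20.19 and 27.16 in control. The HS_AOS_FMT and the HS_AOS values lay above all HS values, while the AOS values lay within the HS range. The log2 change was 0.27 (adjusted p = 0.191) in HS_AOS_FMT against HS_control_FMT and 0.28 (adjusted p = 0.18) in HS_AOS against HS. Tgfbr2 also had the smallest p for the effect of AOS in HS minus that in control, at 0.40 (SE 0.156, adjusted p = 0.258).

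Timp3, a matrix-bound inhibitor of metalloproteinases, was by far the most abundant member, at 606.5 FPKM on average, and Timp1, the inducible inhibitor, the least of its class at 0.859 FPKM. Timp3 had 623.5, 637.9 and 696.2 FPKM in HS_AOS_FMT, 610.7, 563.8 and 619.5 in HS_control_FMT, and 636.7, 839 and 756 in HS_AOS. It had 600.7, 593.2 and 470.9 FPKM in HS, 536.5, 589.4 and 574.7 in AOS, and 573.2, 670.9 and 324.1 in control. The HS_AOS_FMT and the HS_AOS values lay above all HS values, and control 3 and HS 3, both rich in adrenal transcripts, held the lowest values. HS_AOS_FMT 2, also rich in adrenal transcripts, had 637.9 FPKM, above the average of 606.5. The part of adrenal tissue in the Timp3 values was not tested. The log2 change in HS_AOS against HS was 0.42 (SE 0.196, adjusted p = 0.242), 0.31 (adjusted p = 0.569) without HS 3, and 0.42 (adjusted p = 0.0375) with control 3 left out of the fit. Timp1 ranged most widely for its level, with 0.82, 1.07 and 1.11 FPKM in HS_AOS_FMT, 0.89, 1 and 0.28 in HS_control_FMT, 0.44, 0.4 and 0.89 in HS_AOS, 2.27, 0.34 and 1.34 in HS, 0.19, 0.22 and 0.65 in AOS, and 0.53, 0.55 and 2.47 in control. Its HS libraries alone spanned most of that range. Lox, which crosslinks collagen and elastin, had the smallest p in AOS against control. It had 0.61, 0.66 and 0.89 FPKM in AOS and 1.22, 0.97 and 2.4 in control, all AOS values below all control values, with a log2 change of -0.52 (SE 0.199, adjusted p = 0.674) that was -0.29 without control 3. Mmp2 and Mmp14, the gelatinase and its membrane-bound activator, had 7.33 and 7.23 FPKM in control 3 and at most 3.34 FPKM elsewhere.

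The largest difference of any member lay in the myofibroblast class. Acta2, smooth muscle actin, had 9.21, 6.93 and 6.64 FPKM in HS_AOS and 10.49, 17.27 and 27.43 in HS. It had 9.84, 14.33 and 15.04 FPKM in HS_AOS_FMT, 14.09, 19.07 and 8.11 in HS_control_FMT, 10.4, 6.86 and 10.19 in AOS, and 11.95, 8.83 and 13.08 in control. The HS_AOS values lay below all HS values, although HS 1 was close to HS_AOS 1 and the HS libraries spread widely. The log2 change in HS_AOS against HS was -1.09 (SE 0.315, adjusted p = 0.0796). It was -0.77 (adjusted p = 0.312) without HS 3, -1.42 (adjusted p = 0.0233) without HS 1, and -1.10 (adjusted p = 0.0487) after quantile normalization. Against control, HS had a log2 change of 0.58 (SE 0.315, adjusted p = 0.803). Tagln, transgelin, an actin-binding protein of smooth muscle, had 12.67, 12.95 and 16.95 FPKM in HS_AOS_FMT, 21.34, 25.04 and 12.01 in HS_control_FMT, 15.65, 15.99 and 10.17 in HS_AOS and 21.61, 19.53 and 38.08 in HS. Both HS_AOS_FMT and HS_AOS lay below all HS values, and HS 3 held the highest value of the 18. The log2 change was -0.80 (SE 0.288, adjusted p = 0.161) in HS_AOS_FMT against HS and -0.84 (SE 0.288, adjusted p = 0.123) in HS_AOS against HS. Without HS 3 these changes were -0.52 (adjusted p = 0.468) and -0.55 (adjusted p = 0.43).

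Markers of smooth muscle and pericytes that are not members showed the same direction in HS_AOS against HS for 8 of 10 tested markers, with a median of -0.19 and none passing. Their summed level was 56.6 to 70.7 FPKM in HS_AOS and 61.5 to 77.7 FPKM in HS. Myh11, smooth muscle myosin, had 3.32, 2.17 and 1.93 FPKM in HS_AOS and 1.76, 3.86 and 4.56 in HS, so these groups overlapped. In HS_AOS_FMT Myh11 had 4.06, 4.85 and 5.76 FPKM, where Tagln lay below HS. Adrenal genes summed to 3.44 to 4.63 FPKM in HS_AOS and to 3.59, 5.51 and 675 FPKM in HS, and Adipoq, made by fat cells, had 3.34, 6.54 and 1.99 FPKM in HS_AOS and 10.3, 0.68 and 60.6 in HS. The 9 fat genes listed summed to 2804, 2274 and 1933 FPKM in HS_AOS and to 2656, 888.9 and 2097 FPKM in HS. Within HS their sum was highest in HS 1, and the sums of the groups overlapped. These sums rested mostly on genes other than Adipoq, and the list holds Pck1, which is not particular to fat. The sums are therefore not read here as fat content. Counted by gene the fat list gave a different picture. HS 3 was the highest of all libraries for 5 of the 9 fat genes and HS 1 for 0. In HS_AOS against HS, 7 of 8 tested fat genes had a negative and 1 a positive log2 change. Their median was -1.18, with none passing. The library HS 3 held the highest Acta2, Tagln, adrenal and Adipoq values of its group, and the part of those tissues in the difference was not tested. Vim, the intermediate filament of mesenchymal cells, averaged 22 FPKM, and Pdgfrb, the receptor of pericytes, ranged from 3.33 FPKM in HS_control_FMT 3 to 9.18 FPKM in HS_AOS 1.

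The promoter window of Acta2 in RefSeq (build GRCm38.p6, chr19:34255324-34255623, minus strand) is shown because this gene had the largest change of any member. Capitals mark matches to the CArG box, the site bound by serum response factor in smooth muscle genes, here with 1 G or C allowed in the core of A and T bases between CC and GG, searched on both strands.
Acta2: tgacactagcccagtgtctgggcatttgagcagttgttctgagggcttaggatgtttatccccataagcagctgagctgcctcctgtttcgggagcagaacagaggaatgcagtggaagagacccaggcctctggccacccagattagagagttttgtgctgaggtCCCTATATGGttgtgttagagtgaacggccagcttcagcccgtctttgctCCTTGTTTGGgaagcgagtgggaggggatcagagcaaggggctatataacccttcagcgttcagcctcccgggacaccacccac
The matches begin 84 and 34 bases before the start and read CCCTATATGG and CCTTGTTTGG. This form of the box was found in 8.5% of all 32851 promoter windows and in 7 of 33 windows of 30 members, and the strict form with only A and T in the core in 1.63% of all windows and in 0 of the 33. A match is a run of letters and not a measured binding site.

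**Figure D4:**
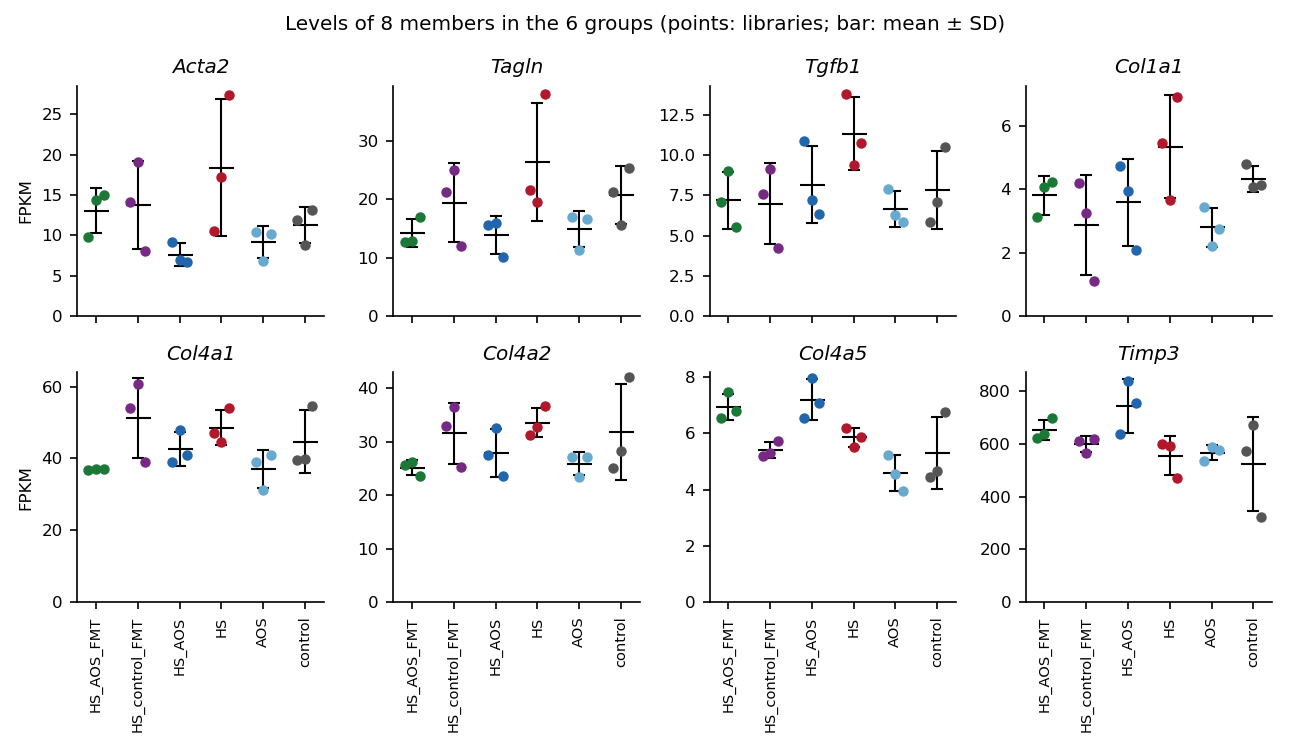
Levels in FPKM of 8 members, with a point per library and a bar for the mean ± SD (n = 3), each axis starting at 0. Acta2 and Tagln spread most within HS, the 3 HS_AOS_FMT points of Col4a1 lie together near 37 FPKM, and Col4a5 is higher in HS_AOS_FMT and HS_AOS than in HS_control_FMT and HS.

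Other genes of the pathway were taken from 8 further lists, holding 134 tested genes: other collagens, other basement membrane genes, glycoproteins, collagen folding and processing enzymes, TGF-beta signalling, matrix receptors, other proteases and growth signals. Of the 134, 6 (4.48%) passed in HS_AOS_FMT against HS_control_FMT, of which 1 was higher and 5 lower, beside 3.99% of all tested genes. In HS_control_FMT against HS 1 (0.746%) passed beside 0.751%, and in HS_AOS against HS 3 (2.24%) beside 2.3%, so each share lay near that of all tested genes. The count was 0 in HS_AOS_FMT against HS, HS against control and AOS against control. Collagen folding and processing was the list with the most calls: 4 of its 16 tested genes were lower in HS_AOS_FMT than in HS_control_FMT and 0 higher. The median change over the list was -0.02. For each of the 4 genes HS_control_FMT held the highest mean of the 6 groups. No gene of the list passed in HS_AOS_FMT against HS or in HS_control_FMT against HS. Serpinh1, the collagen chaperone HSP47, had 32.1, 30 and 38.6 FPKM in HS_AOS_FMT, 77.79, 77.85 and 51.77 in HS_control_FMT, and 28.4, 52 and 48.2 in HS. All HS_AOS_FMT values lay below all HS_control_FMT values, and Serpinh1 was lower by 1.003 on the log2 scale (SE 0.214, adjusted p = 0.0221). P4ha1, a prolyl 4-hydroxylase that lets the triple helix form, had 16.1, 18.8 and 26.2 FPKM in HS_AOS_FMT and 46.4, 48.4 and 37.6 in HS_control_FMT, a log2 change of -1.10 (SE 0.221, adjusted p = 0.0179). In HS it had 16.8, 28.7 and 26 FPKM. P4ha2, its sister enzyme, was lower by 0.94 (adjusted p = 0.0301) and Plod1, a lysyl hydroxylase of collagen, by 0.50 (adjusted p = 0.0174) on the log2 scale in HS_AOS_FMT than in HS_control_FMT. Between the transfers 7 of 7 tested interstitial and 4 of 7 basement membrane chains had positive changes, none of which passed. Without HS_control_FMT 3 these counts were 4 of 7 and 3 of 7, and Col1a2, Col6a2 and Col6a3 had negative changes. The difference between the folding genes and the chains was not tested. The calls for these 4 genes were lost in 4 or 5 of 18 fits that each left out 1 library. Every one of the fits that lost a call left out a library of HS_AOS_FMT or HS_control_FMT, which have 3 libraries each. Serpinh1 was also lost (adjusted p = 0.0759) without the 3 adrenal-rich libraries and Plod1 (adjusted p = 0.0745) where only these 2 groups were fitted.

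**Figure D5:**
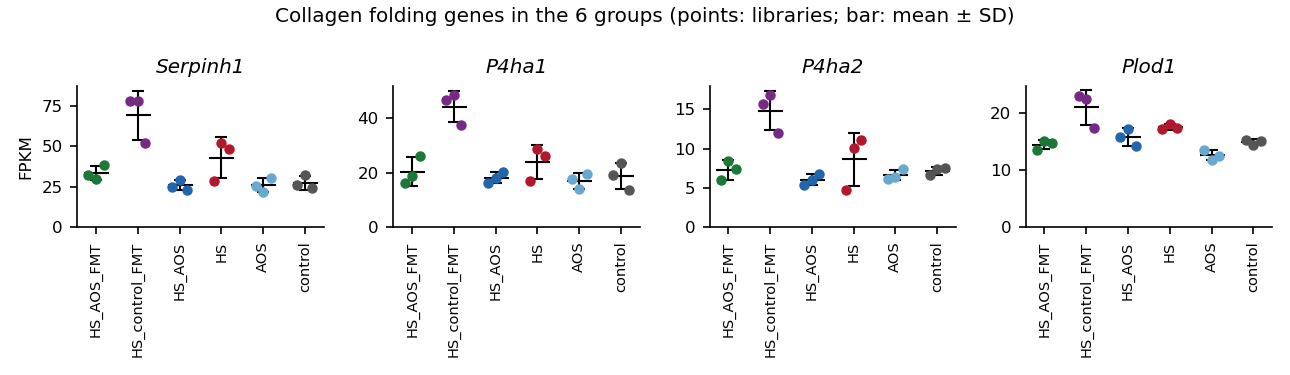
Levels in FPKM of Serpinh1, P4ha1, P4ha2 and Plod1, with a point per library and a bar for the mean ± SD (n = 3), each axis starting at 0. For each gene all 3 HS_AOS_FMT points lie below the 3 HS_control_FMT points, whose mean is the highest of the 6 groups.

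Of the other pathway genes, Adamts5, an aggrecan-cleaving protease, had 2.16, 2.17 and 1.97 FPKM in HS_AOS_FMT, 1, 1.16 and 0.39 in HS_control_FMT and 2.38, 1.76 and 2.19 in HS. It was higher in HS_AOS_FMT than in HS_control_FMT (log2 0.77, adjusted p = 0.0192) and fell in HS_control_FMT against HS (log2 -0.77, adjusted p = 0.0441), and without HS_control_FMT 3 both calls were lost (adjusted p = 0.0565 and 0.11). The first call was lost in 3 and the second in 15 of 18 fits that each left out 1 library, and both where only the compared groups were fitted and without the 3 adrenal-rich libraries. The 3 fits that lost the first call left out HS_AOS_FMT 1, HS_AOS_FMT 2 or HS_control_FMT 3. The second call was also lost without the filter on low values and with the replicate block, with adjusted p-values of up to 0.165 over all these fits. Tgif1, a repressor of TGF-beta transcription, was lower in HS_AOS_FMT than in HS_control_FMT (log2 -0.62, adjusted p = 0.0355), with means of 11.4 and 18.1 FPKM, beside 13.8 in HS. This call was lost in 8 of 18 fits that each left out 1 library (adjusted p of up to 0.139), without the filter on low values (adjusted p = 0.0535) and with the replicate block (adjusted p = 0.0645). The 8 fits included every one that left out a library of HS_AOS_FMT or HS_control_FMT. In HS_AOS against HS, Itgav, an integrin chain that activates latent TGF-beta, rose (log2 0.60, adjusted p = 0.0393), as did Sdc2, the heparan sulphate proteoglycan syndecan-2 (log2 0.39, adjusted p = 0.0331), and Mmp24, a membrane-bound metalloproteinase, fell (log2 -0.53, adjusted p = 0.0294). Without HS 3 these 3 calls were lost, with adjusted p-values of 0.184, 0.164 and 0.157, and over the 18 fits that each left out 1 library they were lost in 10, 5 and 4. For each call the lost fits included those without HS 2, HS 3, HS_AOS 2 or HS_AOS 3. All 3 were also lost with the replicate block, with GC and length trends removed, where only the compared groups were fitted and without the 3 adrenal-rich libraries.

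The test for any difference among the 6 groups was passed by 11 of the 134 pathway genes, beside 8.21% of all tested genes. Col27a1, a fibrillar collagen best known from cartilage, had 21.5, 23.1 and 18.1 FPKM in HS_AOS_FMT, 18.4, 19.6 and 14.6 in HS_control_FMT, and 48.8, 31.4 and 36.4 in HS_AOS. It had 46.8, 17.1 and 12.2 FPKM in HS, 8.45, 9.18 and 10.1 in AOS, and 9.73, 9.37 and 9.92 in control (F test, adjusted p = 0.0133). Every library of the 4 groups with the diet and STZ lay above every AOS and control library, although HS against control did not pass for this gene. Cyr61, a matricellular relative of Ctgf, had 41.6, 28.1 and 60.5 FPKM in HS_AOS_FMT, 34.7, 35.8 and 52.7 in HS_control_FMT, and 10.4, 14.8 and 19.9 in HS_AOS. It had 35.1, 29.4 and 31.2 FPKM in HS, 17.6, 11.9 and 10.5 in AOS, and 9.68, 25.9 and 19.6 in control (F test, adjusted p = 0.0159). All HS_AOS values of Cyr61 lay below all HS values, a difference that did not pass in the comparison of HS_AOS with HS.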

How the data were processed

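Kidney RNA sequencing of 18 samples was analysed. The authors deposited 1 FPKM value per gene and sample, read as FPKM because values multiplied by transcript length gave nearly equal totals (coefficient of variation 0.929% against 4.25% for plain sums). Bowtie 0.12.2 and build mm10 come from the submitters' processing notes; quantifier, annotation and strandedness have no statement in the sources used here. Depth is unknown, so no intervals for counting error are given, and the count test planned first was replaced by limma.

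Genes with at least 1 FPKM in 3 of 18 samples (12385) were fitted as log2(FPKM + 1) in limma 3.58.1 (R 4.3.3) with trend and robust options and 1 mean per group (12 residual degrees of freedom). The threshold was an adjusted p of 0.05, taken over all tested genes of a comparison. The fit was tested on simulated data. No label pairs samples between groups. Deviations of same-numbered samples correlated positively for all 3 numbers only in HS against control (0.188, 0.243 and 0.121), and ran from -0.229 to 0.312 elsewhere. Such values do not establish pairing, and HS 3 and control 3 were both rich in adrenal transcripts. The genes named are the member with the smallest p per comparison, leading members per role by level, members at an unadjusted p under 0.05, and pathway genes that passed. Col4a3, Col4a4, Col15a1, Dcn, Ctgf, Timp1, Lama5, Mmp2, Mmp14, Pdgfrb, Myh11, Adipoq and Havcr1 were added after their values were seen. Members and lists were chosen with earlier results of these data known. Alternatives covered normalization, filter, pseudocount, fit, block, GC content with length, and libraries left out.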

Additional observations from a re-analysis of the deposited data

How the results depend on the processing

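The number of members that passed stayed at 0 in HS against control, in HS_control_FMT against HS and in AOS against control under all alternatives run. In HS_AOS against HS it was 1 after quantile normalization (Acta2), 7 with array weights, 2 without control 3 and HS_control_FMT 3 together, and 0 to 1 with each library left out. In HS_AOS_FMT against HS it was 3 with array weights, 1 where only the compared groups were fitted (Bgn) and 2 without those 2 libraries together (Col4a2 and Col18a1). In HS_AOS_FMT against HS_control_FMT it was 4 with array weights, 1 with GC and length trends removed (Col4a1) and 2 without the 2 libraries together (Col4a1 and Col4a2). The effect of AOS in HS minus that in control gave 4 with array weights. The F test, with 1 member called, gave 0 after quantile normalization, without the filter on low values, with the replicate block and with GC and length trends removed, 18 with array weights, 7 without the 2 libraries together, and 0 to 4 with each library left out. Leaving out those 2 libraries together was chosen after seeing the data. The array weight estimate stopped before it converged and ran from 0.111 for control 3 to 5.8 for HS_AOS 2, so its counts rest on few libraries. With the replicate block, 7 genes of all tested passed in HS against control, against 8 without it, and the block changed no call of a member between 2 groups. By their labels, samples of different groups share only a number. Over all genes the block gave 276 calls against 494 in HS_AOS_FMT against HS_control_FMT, 37 against 121 in HS_AOS_FMT against HS, and 89 against 285 in HS_AOS against HS. No log2 change printed above with its adjusted p turned sign in an alternative, while medians and sign counts over the members did, as given there. With 3 libraries a group and no read counts, members at about 1 FPKM, such as Timp1, Lox and Col5a1, are measured least precisely.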
